A study of Mus musculus with 6 samples.

Results

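Glycolysis splits glucose into pyruvate, and its enzymes, transporters and regulatory kinases were followed here together with genes of the hypoxia response in MS-1, a line of mouse islet endothelial cells immortalised with the SV40 large T antigen. The members are 38 gene names chosen by name, and all 38 were found among the 29955 names of the deposited table. The 6 libraries came from cells given an inhibitor of miR-31, an inhibitor of miR-27 or a negative-control inhibitor, each kept for 72 h with 1 ng/ml TGF-β2 or without it. Each condition had 1 library, every condition carried a transfected inhibitor, and untransfected cells were not part of the series. Differences with TGF-β2 therefore rest on 3 pairs of libraries, and the labels do not say whether these were separate cultures.

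Endothelial cells draw much of their energy from glycolysis even when oxygen is present. Under low oxygen, the alpha subunits of hypoxia-inducible factor (HIF) escape hydroxylation by the EGLN enzymes and destruction through the VHL ubiquitin ligase. They then pair with ARNT and switch on glucose uptake, glycolysis and lactate export, and proteins that act on mitochondria. The HIF-1 alpha protein is controlled largely after translation, so an RNA level of Hif1a is not a measure of HIF activity. The labels name no oxygen setting.

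The values are FPKM, which divide fragments by the length of the transcript and by library size, so levels of different genes can be set side by side. Relative depth was estimated from the commonest ratio of values under 0.02 FPKM, taken as 1 fragment against 1. By it the 5 other libraries held between 0.817 and 0.904 of the fragments of the negative-control library without TGF-β2. Between 203 and 283 names, of 886 to 1067 used per library, lay within 0.5% of that ratio, and absolute depth is unknown. Between 11680 and 11791 names reached 1 FPKM in each library. The treatment was visible in every pair: Pmepa1, a gene induced by TGF-β signalling, was at 16.9, 18.3 and 16.5 FPKM with TGF-β2 and the miR-31, miR-27 and negative-control inhibitors, against 0.527, 0.412 and 0.402 FPKM without it. All 5 genes taken to check the treatment rose, the largest differences being those of Pmepa1 (3.66) and Acta2 (3.58). Of 10 endothelial markers 9 averaged at least 1 FPKM, and their sum was between 1520 and 1540 FPKM with TGF-β2 and between 1410 and 1510 without it. Of these 9, 2 rose and 4 fell, beside 22.7% and 27.5% of all genes tested. The largest differences were in Kdr (-0.80), Emcn (0.79) and Eng (0.53). The tight junction gene Cldn5 lay at or under 0.0359 FPKM.

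Of the 38 members, 35 averaged at least 1 FPKM and were tested. With TGF-β2, 15 members rose, 4 fell and 16 did not pass the test (limma, adjusted over all 11816 genes tested, threshold 0.05). Among all genes tested, 22.7% rose and 27.5% fell, against 42.9% and 11.4% of the tested members. The median difference was 0.14 on the log2(FPKM + 1) scale for the members and -0.02 for all genes tested. The 3 largest differences were rises of Ddit4, Bnip3 and Hif1a, and the largest fall was that of Ndrg1. Most other members that passed moved by less than 0.5. These are bulk samples, in which fewer cells of a type and less RNA per cell cannot be told apart.

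**Figure D1:**
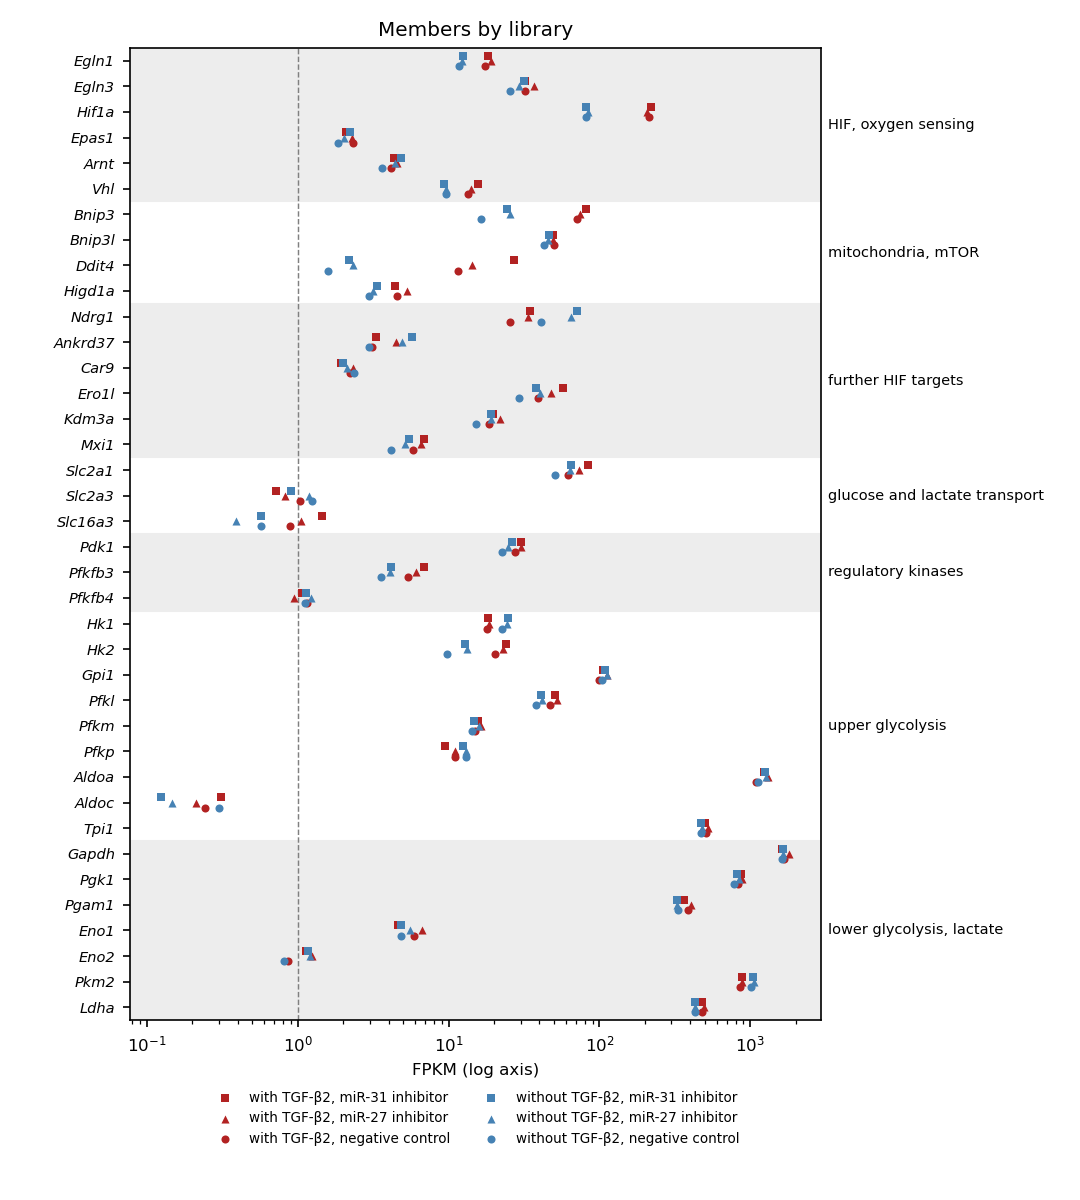
FPKM of the 38 members in each library on a log axis, grouped by role, with red symbols for TGF-β2 and blue symbols for none. Circles are the negative-control, squares the miR-31 and triangles the miR-27 inhibitor, and the dashed line marks 1 FPKM. Hif1a, Bnip3 and Ddit4 show red symbols clear to the right of the blue, while the most abundant enzymes, such as Gapdh at a mean of 1670 FPKM, show them close together.

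**Figure D2:**
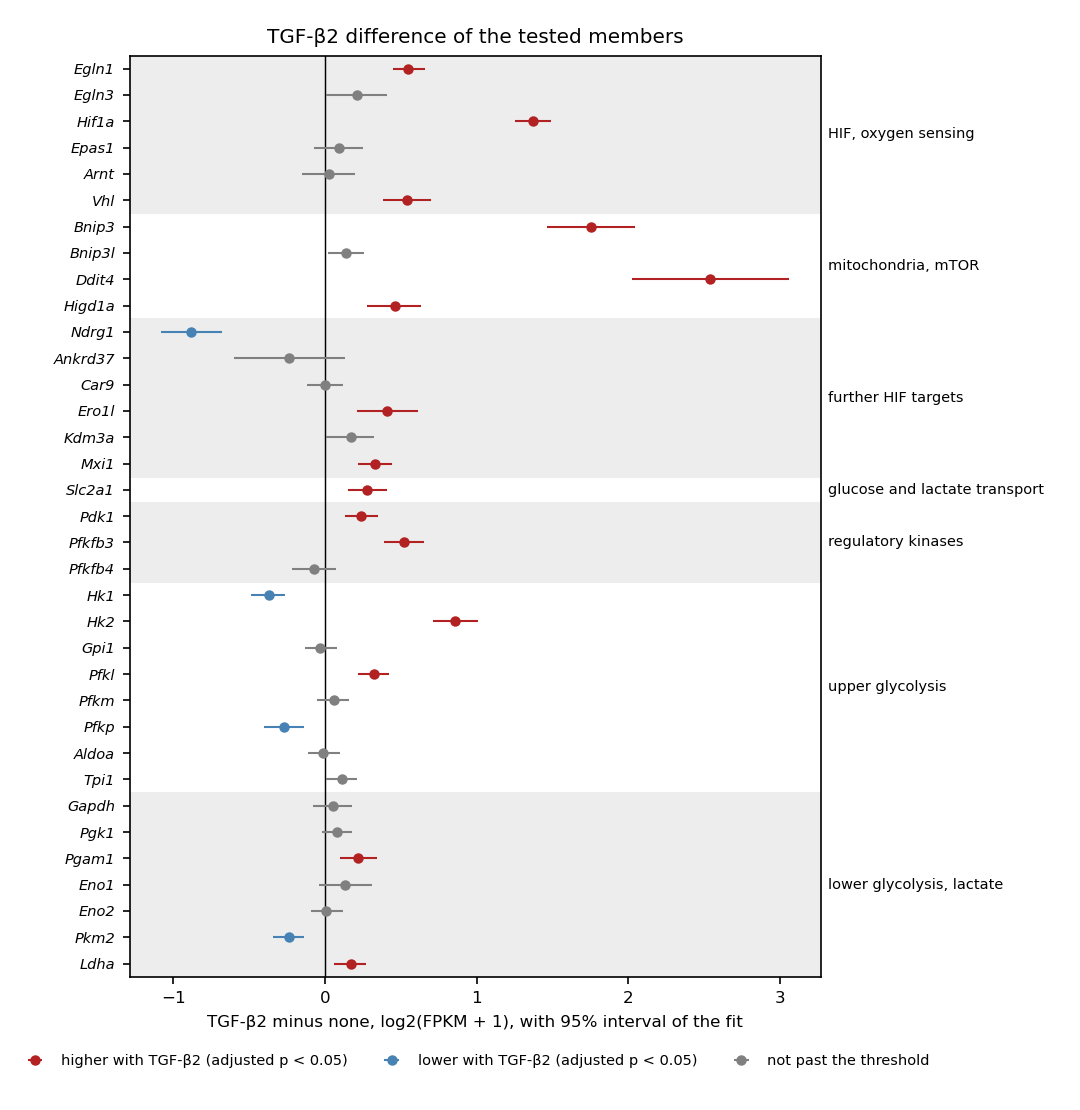
Difference with TGF-β2 for the 35 tested members, as points with the 95% interval of the fit on the log2(FPKM + 1) scale. Red points passed the test as higher (15), blue points as lower (4), and grey points did not pass (16). Ddit4 at 2.54 and Bnip3 at 1.75 lie farthest to the right and Ndrg1 at -0.88 farthest to the left.

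The promoters of the 3 members with the largest rises and of Hk2, whose rise was the largest among the enzyme genes of the 38, are shown because HIF binds a short core found in promoters of hypoxia genes. The sequences are from RefSeq (GRCm38.p6, not the build of the table), the 250 bases before the start of each gene, read 5′ to 3′ on its own strand. Capitals mark every match to ACGTG or GCGTG on either strand. A palindromic CACGTG counts on both strands, and neighbouring matches join into 1 run of capitals.
Ddit4, chr10:59951771-59952020, minus strand: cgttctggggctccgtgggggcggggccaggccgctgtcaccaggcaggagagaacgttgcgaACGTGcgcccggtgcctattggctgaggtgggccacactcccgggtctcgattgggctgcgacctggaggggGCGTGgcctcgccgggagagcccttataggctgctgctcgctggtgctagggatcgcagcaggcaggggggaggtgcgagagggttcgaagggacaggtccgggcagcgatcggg
Bnip3, chr7:138909507-138909756, minus strand: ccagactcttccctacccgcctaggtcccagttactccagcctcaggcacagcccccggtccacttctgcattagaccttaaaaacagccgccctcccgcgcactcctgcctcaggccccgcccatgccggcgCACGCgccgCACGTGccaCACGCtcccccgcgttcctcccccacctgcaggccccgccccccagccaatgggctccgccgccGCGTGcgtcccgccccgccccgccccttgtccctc
Hif1a, chr12:73907617-73907866, plus strand: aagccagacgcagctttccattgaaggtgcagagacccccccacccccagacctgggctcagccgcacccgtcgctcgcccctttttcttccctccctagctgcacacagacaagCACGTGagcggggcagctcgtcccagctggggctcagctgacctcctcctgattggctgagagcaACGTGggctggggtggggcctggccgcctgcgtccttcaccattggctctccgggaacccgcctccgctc
Hk2, chr6:82774455-82774704, minus strand: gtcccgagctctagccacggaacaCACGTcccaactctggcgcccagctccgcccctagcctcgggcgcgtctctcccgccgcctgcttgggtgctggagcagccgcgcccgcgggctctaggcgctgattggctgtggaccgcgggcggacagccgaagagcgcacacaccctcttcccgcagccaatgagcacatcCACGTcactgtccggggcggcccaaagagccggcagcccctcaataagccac

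These windows hold 2 matches in Ddit4, 5 in Bnip3, 3 in Hif1a and 2 in Hk2. In Bnip3, 4 of the 5 start between 117 and 99 bases before the gene, around a palindromic core. In all, 34 of the 38 members had an entry, with 51 promoters between them, some overlapping. Ndrg1, Bnip3l, Epas1 and Slc2a3 had none. Of the 51 windows, 39 (76.5%) held at least 1 match, against 38.6% of all 32851 promoter windows of the same length, and 45.1% against 16.6% held ACGTG. The members' windows also held more G and C, at a median of 61.6% against 52.4%, and the part of base composition in these shares was not tested. Many members were listed because they are known HIF targets, so the shares describe the list. A match is a run of letters and not evidence of binding.

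Among the genes of HIF and oxygen sensing, 3 of 6 rose with TGF-β2 and none fell, beside 22.7% and 27.5% of all genes tested. Hif1a, the alpha subunit of HIF-1 (mm9, chromosome 12, 75002362 to 75050772), was at 220, 205 and 214 FPKM with TGF-β2 and the miR-31, miR-27 and negative-control inhibitors, against 81.0, 83.3 and 81.7 FPKM without TGF-β2. The groups lay far apart, with little spread inside either. The difference was 1.37 ± 0.05 (SE of the fit, log2 of FPKM + 1; limma adjusted p = 7.525e-05), a ratio of 2.71, 2.47 and 2.62 in the 3 transfections. Epas1, which encodes the alpha subunit of HIF-2, lay between 2.10 and 2.31 FPKM with TGF-β2 and between 1.86 and 2.21 without it. Hif1a thus made up between 98.9% and 99.1% of the summed FPKM of both alpha subunits with TGF-β2, and between 97.3% and 97.8% without it. Epas1 did not pass, at 0.09 with an interval of -0.07 to 0.25, but its value rested on single pairs. It was 0.16 without the miR-31 pair (limma adjusted p = 0.0452) and 0.03 without the negative-control pair (0.755). Arnt, the common partner, did not pass either, at 0.03 with an interval of -0.15 to 0.20.

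Egln1 and Vhl, which act in the breakdown of HIF alpha subunits, also rose. Egln1, the main oxygen-sensing prolyl hydroxylase, was at 18.3, 19.1 and 17.5 FPKM with TGF-β2, against 12.5, 12.3 and 11.7 FPKM without it (0.55 ± 0.04, limma adjusted p = 6.615e-04). Vhl, the substrate-binding part of the ligase, was at 15.7, 14.0 and 13.4 FPKM with TGF-β2, against 9.32, 9.62 and 9.57 FPKM without it (0.54 ± 0.06, limma adjusted p = 0.00232). In both genes every library with TGF-β2 stood above every library without it. Egln3, a hydroxylase that is itself a HIF target, was the more abundant of the hydroxylase genes, at 31.9, 36.7 and 32.2 FPKM with TGF-β2 and 31.8, 29.3 and 25.6 FPKM without it. Its difference of 0.21 missed the threshold (limma adjusted p = 0.0748), and its response was 0.0022 with the miR-31 inhibitor, against 0.31 and 0.32 with the miR-27 and negative-control inhibitors. Without the miR-31 pair it passed, at 0.32 (limma adjusted p = 0.00453).

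The largest rises came from the genes that act on mitochondria and on mTOR. Ddit4, also called REDD1, encodes an inhibitor of mTORC1 induced by hypoxia and other stresses (mm9, chromosome 10, 59412423 to 59414518). It was at 27.3, 14.3 and 11.5 FPKM with TGF-β2 and the miR-31, miR-27 and negative-control inhibitors, against 2.18, 2.32 and 1.58 FPKM without TGF-β2. All 3 libraries with TGF-β2 were well above the rest, and the one with the miR-31 inhibitor was the highest. The difference was 2.54 ± 0.20 (limma adjusted p = 7.584e-04), with ratios of 12.50, 6.15 and 7.24, and it was 2.24 (limma adjusted p = 2.950e-05) over the miR-27 and negative-control pairs alone.

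The same miR-31 library with TGF-β2 also stood apart in genes of the ATF4-CHOP stress response, a pathway that is known to act on Ddit4 as well. The median of 15 such genes lay 1.66 above the negative control with TGF-β2 in the miR-31 library and 0.52 above it in the miR-27 library, and 0.37 above it in each without TGF-β2. Ddit3, which encodes CHOP, was at 298, 39.8 and 19.6 FPKM with TGF-β2, and Chac1 and Herpud1 were at 109 and 218 FPKM in the miR-31 library against 7.06 and 21.5 FPKM with the negative control. Over the 3 pairs 1 of the 15 rose with TGF-β2 and 5 fell, beside 22.7% and 27.5% of all genes tested. Asns was among the 5 (-1.16, limma adjusted p = 0.00184), while Herpud1 at 1.22 and Trib3 at -1.11 did not pass. The part of this stress signal in the level of Ddit4 was not tested.

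Bnip3 encodes a protein of the outer mitochondrial membrane that marks mitochondria for autophagy (mm9, chromosome 7, 146082519 to 146101189). With TGF-β2 it was at 81.0, 73.8 and 71.1 FPKM in the miR-31, miR-27 and negative-control transfections, against 24.4, 25.4 and 16.3 FPKM without it. The groups did not overlap, and the lowest value was that of the negative control without TGF-β2. The difference was 1.75 ± 0.11 (limma adjusted p = 4.057e-04), with ratios of 3.32, 2.91 and 4.36. Its relative Bnip3l, which has a similar role, did not pass, at 49.2, 49.0 and 50.3 FPKM with TGF-β2 and 46.0, 45.7 and 43.1 FPKM without it (0.14 ± 0.05, limma adjusted p = 0.0601). Without TGF-β2 Bnip3l was the more abundant of the pair in every transfection, and with it Bnip3 was.

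Higd1a, which encodes a mitochondrial protein induced by hypoxia, rose by 0.46 ± 0.07 (limma adjusted p = 0.00509), at 4.38, 5.30 and 4.53 FPKM with TGF-β2 against 3.36, 3.17 and 2.98 FPKM without it. The table lists a second name, Gm9790, at the same place on chromosome 9, and the sum of both names was 30.8, 30.3 and 30.7 FPKM with TGF-β2 against 20.7, 20.2 and 21.6 FPKM without it. Fragments could have been divided between the names, so the level of Higd1a alone is uncertain.

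**Figure D3:**
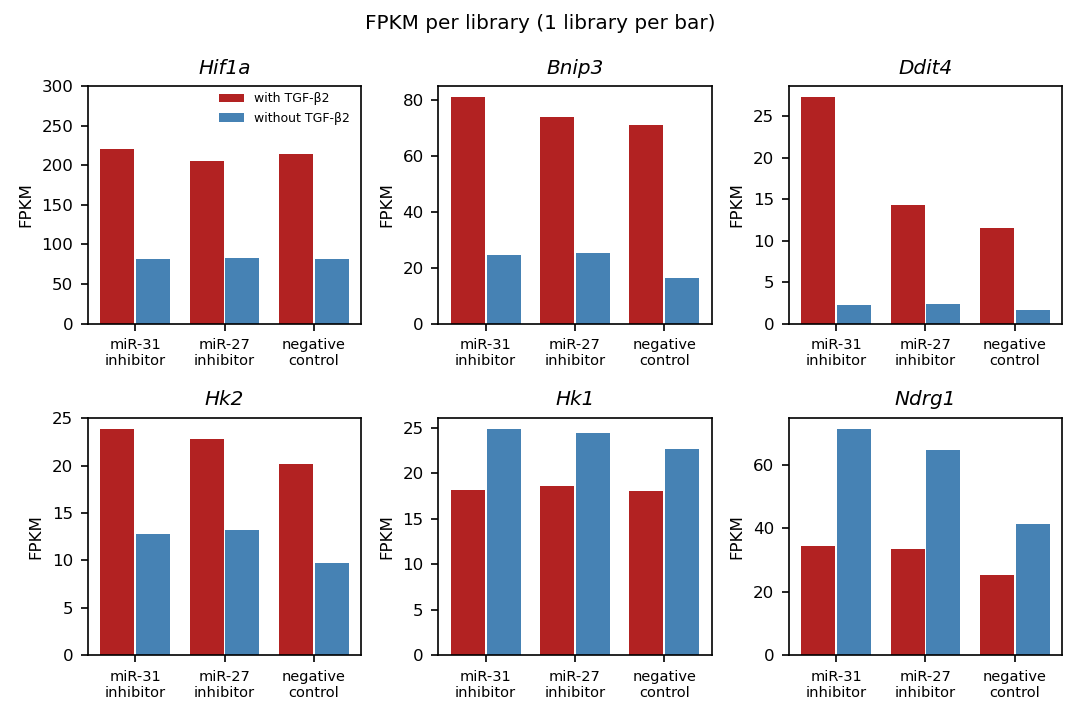
FPKM of 6 members, 1 bar per library, with TGF-β2 in red to the left of no TGF-β2 in blue within each transfection. Hif1a, Bnip3, Ddit4 and Hk2 are higher with TGF-β2 in all 3 pairs, while Hk1 and Ndrg1 are lower. Ddit4 reaches its highest level, 27.3 FPKM, with the miR-31 inhibitor and TGF-β2.

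Of 6 other HIF targets among the members, Ero1l and Mxi1 rose and Ndrg1 fell, beside 22.7% and 27.5% of all genes tested. Ankrd37, Car9 and Kdm3a did not pass. Ndrg1 encodes a stress-responsive protein that is widely used as a marker of hypoxia (mm9, listed on chromosome 15, 66760880 to 66844601). The listed place spans 83722 bases, against a RefSeq length of 40324, and is shared with the name AK085274. It was at 34.4, 33.5 and 25.4 FPKM with TGF-β2, against 71.4, 64.7 and 41.2 FPKM without it. The groups did not overlap, and within each the negative control was lowest. Its difference of -0.88 ± 0.08 (limma adjusted p = 0.00110) ran against that of Bnip3 in all 3 transfections.

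Ero1l, the older name of Ero1a, encodes an oxidase for disulfide bonds in the endoplasmic reticulum. It was at 57.3, 47.6 and 39.2 FPKM with TGF-β2, against 37.7, 40.4 and 29.2 FPKM without it. It was higher in each of the 3 pairs, although the groups overlap, and the difference was 0.41 ± 0.08 (limma adjusted p = 0.0109). This call was lost without either negative-control library (limma adjusted p = 0.0555), without the filter on low values (0.0601) and without the inhibitor term (0.0804). Mxi1, an antagonist of MYC, rose by 0.33 ± 0.04 (limma adjusted p = 0.00373), at 6.90, 6.60 and 5.79 FPKM with TGF-β2 against 5.46, 5.16 and 4.16 FPKM without it.

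Kdm3a, a histone H3 lysine demethylase, lay between 18.6 and 21.9 FPKM with TGF-β2 and between 15.2 and 19.2 without it (0.17, interval 0.01 to 0.32, limma adjusted p = 0.0703), and it passed without the miR-31 pair (0.23, limma adjusted p = 0.0140). Ankrd37, an ankyrin repeat gene induced by HIF-1, was at 3.28, 4.51 and 3.10 FPKM with TGF-β2 and 5.72, 4.94 and 2.95 FPKM without it. Its 3 responses had different signs, and the interval of the difference, -0.60 to 0.13, was the widest among the members that did not pass. Car9, a surface carbonic anhydrase often taken as a readout of HIF-1, lay between 1.93 and 2.33 FPKM with TGF-β2 and between 1.98 and 2.35 without it, with an interval of -0.12 to 0.12.

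Of the 3 transport genes only Slc2a1 was tested, and it rose. Slc2a1, the main glucose transporter gene of these cells, was at 84.2, 72.8 and 62.2 FPKM with TGF-β2, against 65.0, 63.7 and 50.6 FPKM without it (0.28 ± 0.05, limma adjusted p = 0.00940). Each pair rose, but the negative-control library with TGF-β2 was below both inhibitor libraries without it, and the call was lost without the inhibitor term (limma adjusted p = 0.129) or without either negative-control library (0.0586). Slc2a3, a second transporter gene, lay under the filter at 0.712, 0.817 and 1.04 FPKM with TGF-β2 and 0.906, 1.19 and 1.25 FPKM without it, and was lower with TGF-β2 in all 3 pairs. Slc16a3, which encodes the lactate exporter MCT4, also lay under it, at 1.45, 1.05 and 0.885 FPKM with TGF-β2 and 0.567, 0.390 and 0.574 FPKM without it. It was higher with TGF-β2 in all 3 pairs, and neither gene was tested.

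Of the 3 regulatory kinases, Pfkfb3 and Pdk1 rose and none fell, beside 22.7% and 27.5% of all genes tested. Pfkfb3 makes fructose 2,6-bisphosphate, the activator of phosphofructokinase, and is a known driver of endothelial glycolysis. It was at 6.91, 6.06 and 5.37 FPKM with TGF-β2, against 4.16, 4.10 and 3.58 FPKM without it, with no overlap (0.52 ± 0.05, limma adjusted p = 0.00132). Its relative Pfkfb4 lay between 0.946 and 1.15 FPKM with TGF-β2 and between 1.11 and 1.22 without it, and did not pass. Pdk1, which inhibits pyruvate dehydrogenase, was at 30.0, 30.4 and 27.6 FPKM with TGF-β2, against 26.5, 24.8 and 22.7 FPKM without it (0.24 ± 0.04, limma adjusted p = 0.0104). This call was lost without either negative-control library (limma adjusted p = 0.0709) and without either miR-27 library (0.0683).

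The summed RNA level of the listed enzyme genes differed little, while the balance between the isozymes of the first step turned over. Of 15 enzyme genes tested, 4 rose (Hk2, Pfkl, Pgam1 and Ldha), 3 fell (Hk1, Pfkp and Pkm2) and 8 did not pass. These shares, 26.7% and 20.0%, are near the 22.7% and 27.5% of all genes tested. The summed FPKM of all 16 enzyme genes was 6190, 6543 and 6026 with TGF-β2, against 6216, 6277 and 5976 without it. The gap was widest in the miR-27 pair, and in the miR-31 pair the sum was slightly lower with TGF-β2. Gapdh and Aldoa, at means of 1670 and 1215 FPKM, make up much of this sum, and the source of their fragments is uncertain (below). The enolase copy Gm5506, listed between 237 and 297 FPKM, is not in it.

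Hk2, an inducible hexokinase (mm9, chromosome 6, 82675021 to 82724448), was at 23.9, 22.8 and 20.2 FPKM with TGF-β2, against 12.8, 13.2 and 9.77 FPKM without it. Hk1, the widely expressed hexokinase (mm9, chromosome 10, 61731603 to 61842656), was at 18.2, 18.6 and 18.1 FPKM with TGF-β2, against 24.9, 24.4 and 22.7 FPKM without it. Neither gene had overlapping groups. Hk2 rose by 0.86 ± 0.06 (limma adjusted p = 4.767e-04) and Hk1 fell by 0.37 on the log2 scale (SE 0.04, limma adjusted p = 0.00272). The share of Hk2 in their summed FPKM was 56.8%, 55.1% and 52.7% with TGF-β2, against 33.9%, 35.2% and 30.1% without it. The more abundant hexokinase RNA was therefore Hk2 with TGF-β2 and Hk1 without it, in each of the 3 transfections.

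Among the phosphofructokinases, the enzymes of the committed step, the liver-type gene Pfkl was the most abundant and rose. Its level was 50.9, 52.6 and 47.1 FPKM with TGF-β2, against 41.0, 41.7 and 37.7 FPKM without it (0.32 ± 0.04, limma adjusted p = 0.00286). The platelet-type gene Pfkp was at 9.48, 11.0 and 11.1 FPKM with TGF-β2, against 12.5, 13.0 and 13.1 FPKM without it (-0.27 ± 0.05, limma adjusted p = 0.00989). Pfkm, the muscle type, did not pass, with an interval of -0.05 to 0.16. The share of Pfkl in the family was between 64.4% and 67.0% with TGF-β2 and between 58.0% and 60.0% without it. Each gene of the family was listed at a place shared with another name, and how fragments were divided was not tested.

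In the isomerase step before phosphofructokinase and in the steps around the triose phosphates, most genes were abundant and did not pass. Gpi1, which encodes glucose phosphate isomerase, had an interval of -0.13 to 0.08, and Tpi1, triose phosphate isomerase, one of 0.01 to 0.21 (limma adjusted p = 0.0688). Pgk1, phosphoglycerate kinase, lay between 825 and 877 FPKM with TGF-β2 and between 779 and 840 without it. Aldoc, the brain-type aldolase, was under 0.309 FPKM or at that level in every library and was not tested. Aldoa and Gapdh, the muscle-type aldolase and the dehydrogenase often used as a loading control, had intervals of -0.11 to 0.10 and -0.08 to 0.18. The table places both on another chromosome than the reference annotation does (Aldoa on 12 instead of 7, Gapdh on 1 instead of 6), so the source of the fragments in these rows is uncertain.

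The lower steps held small changes. Pkm2, the older name of the pyruvate kinase gene Pkm, was at 886, 883 and 855 FPKM with TGF-β2, against 1043, 1051 and 1013 FPKM without it. It fell by 0.24 on the log2 scale (SE 0.04, limma adjusted p = 0.00632), with no overlap, and the value does not separate its splice forms. Pgam1, phosphoglycerate mutase, rose by 0.22 ± 0.05 (limma adjusted p = 0.0143), at 364, 402 and 387 FPKM with TGF-β2 against 326, 329 and 332 FPKM without it. Ldha, which turns pyruvate into lactate, rose by 0.17 ± 0.04 (limma adjusted p = 0.0220), at 475, 493 and 479 FPKM with TGF-β2 against 429, 430 and 429 FPKM without it. The calls of Pgam1 and Ldha were lost without either negative-control library (limma adjusted p = 0.0789 and 0.108) and without either miR-27 library (0.0886 and 0.131).

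The enolase values need care. Eno1, the common enolase, was listed at 4.65, 6.62 and 5.87 FPKM with TGF-β2 and 4.81, 5.55 and 4.87 FPKM without it, far below its neighbours in the pathway. Its retrogene copy Gm5506, named Eno1b by RefSeq, was listed at 278, 297 and 261 FPKM with TGF-β2 and 258, 260 and 237 FPKM without it. Eno1 thus received between 1.64% and 2.19% of the summed FPKM, and fragments of near-identical copies cannot be assigned with certainty. Eno1 did not pass (0.13, limma adjusted p = 0.160), but did without the miR-31 pair (0.22, limma adjusted p = 0.0133). Eno2, the neuronal enolase, stood near the filter at a mean of 1.07 FPKM.

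Counted by library, 16 of the 35 tested members had all 3 libraries with TGF-β2 above all 3 without it, and 4 had them all below, against 26.8% and 31.6% of all genes tested. A rise of at least 1 on the log2(FPKM + 1) scale was seen for 3 members, Hif1a, Bnip3 and Ddit4, in the miR-31, miR-27 and negative-control transfections, where 2.65%, 2.43% and 2.62% of all genes tested rose as much. Ndrg1 was lower by at least 1 with the miR-31 inhibitor, beside 2.43% of all genes, and no member was with the miR-27 inhibitor or the negative control, beside 2.04% and 2.12%. These pairs have no replicate check.

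Genes of the same pathways outside the members were counted next. Beside them stand all genes tested, of which 22.7% rose and 27.5% fell, and no list was tested as a set. Of 33 other HIF targets, 24 were tested, of which 15 rose and 5 fell, with a median of 0.50. They included the clock-related repressor gene Bhlhe41, which rose by 1.67 (limma adjusted p = 1.632e-04). The hormone gene Stc1 fell by 1.15 on the log2 scale (limma adjusted p = 2.187e-04). Of 12 other HIF subunits and regulators tested, none rose and 4 fell, among them Hif1an, the asparagine hydroxylase that limits HIF activity (-0.31, limma adjusted p = 0.00765), and the chaperone gene Hsp90aa1 (-0.25) and the coactivator gene Crebbp (-0.20).

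Of 10 other tested glycolysis isozymes and regulators, 5 rose and 3 fell. The shares beside this list and the next ones are again 22.7% higher and 27.5% lower of all genes tested. Bpgm, bisphosphoglycerate mutase, rose by 0.95 and Eno3, the muscle enolase, by 0.49. Eno3 was listed between 85.7 and 146 FPKM, far above the 4.65 to 6.62 FPKM of Eno1, and the source of its fragments was not tested. Txnip, an inhibitor of glucose uptake, fell by 0.75 on the log2 scale. Its responses were uneven, at -1.26, -0.60 and -0.37 with the miR-31, miR-27 and negative-control inhibitors. It differed more with the transfection, at -1.35 for miR-31 and -0.97 for miR-27 inhibition, although neither passed (limma adjusted p = 0.211 and 0.295). In the pentose phosphate pathway none of 8 rose and 2 fell, Prps1 by 0.23 and Taldo1 by 0.19, and Tkt did not pass (0.10). Of 24 genes of pyruvate dehydrogenase and the citric acid cycle, 1 rose, the pyruvate carboxylase gene Pcx (0.57), and 10 fell. Pdp1, the phosphatase that opposes Pdk1, fell by 0.81 on the log2 scale (limma adjusted p = 3.851e-04), at 5.56, 5.15 and 4.96 FPKM with TGF-β2 against 10.4, 10.5 and 8.82 FPKM without it. Suclg2, a subunit of succinyl-CoA ligase, fell by 0.45.

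Some genes used as markers of other cell types moved with TGF-β2 too. The sum of 7 fibroblast markers was between 18.4 and 23.1 FPKM with TGF-β2 and between 2.49 and 3.32 without it, and came mostly from Pdgfra and Pdgfrb. Col1a1 was at 0.222, 0.225 and 0.444 FPKM with TGF-β2 and the miR-31, miR-27 and negative-control inhibitors, and at or under 0.00620 FPKM without it. Col1a2 was also higher in every pair, though at or under 0.0560 FPKM, and Lum, Dcn and Thy1 lay under 0.0560 FPKM in every library. Of 7 leukocyte markers, 2 averaged at least 1 FPKM, and the sum, nearly all Cd68, was between 107 and 137 FPKM with TGF-β2 and between 170 and 212 without it. Lyz2, the other of the 2, went the other way, at 1.29, 1.36 and 1.68 FPKM with TGF-β2 against 1.03, 1.12 and 1.18 FPKM without it (0.21, limma adjusted p = 0.0208). Ptprc, the common leukocyte antigen, was at or under 0.0257 FPKM. The sum of 7 epithelial markers, mostly Krt18, was between 12.9 and 16.6 FPKM with TGF-β2 and between 38.7 and 54.5 without it, and Epcam and Krt5 were listed at 0. Krt19 was instead higher in every pair, at 0.755, 0.718 and 1.37 FPKM with TGF-β2 against 0.170, 0.346 and 0.475 FPKM without it. All 8 pancreas markers together stayed at or under 0.242 FPKM. Whether these genes changed within the MS-1 cells or came from other cells was not tested, nor was any part of this in the differences of the members.

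Neither microRNA inhibitor changed a member past the threshold. The lowest limma adjusted p was 0.211 for miR-31 inhibition, reached by Slc2a1 and Ndrg1, and 0.295 for miR-27 inhibition, and 0.0339% and 0.00846% of all genes tested passed. At an unadjusted p under 0.05, 12 members were higher and none lower with each inhibitor, against 10.7% and 7.30% of all genes tested that were higher and 7.33% and 5.14% that were lower. Both comparisons share the negative-control libraries. When the miR-31 library lacking TGF-β2 was left out, the miR-31 inhibitor was represented by 1 library, the one with TGF-β2. In that fit the differences were 1.20 for Ddit4, 0.58 for Ero1l, 0.48 for Ndrg1, 0.46 for Slc2a1 and 0.31 for Pfkfb3. These members were picked by that same fit. It holds no variation between miR-31 libraries, so its calls are not counted here.

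Distances from the negative control were also counted library by library. Without TGF-β2, 28 of the 35 tested members were above the negative control with both inhibitors, against 44.1% of all genes tested. With TGF-β2 it was 22 members, against 35.9%. At a distance of 0.2 or more, a limit chosen after the values were seen, 11 members were above with both inhibitors without TGF-β2 (31.4%, against 4.94% of all genes) and 4 were with TGF-β2 (11.4%, against 3.88%). The 11 were Hk2, Eno2, Slc2a1, Bnip3, Ddit4, Ndrg1, Ankrd37, Ero1l, Arnt, Kdm3a and Mxi1, and the 4 were Slc2a1, Ddit4, Ndrg1 and Ero1l. No member lay 0.2 or more below with both, against 2.41% of all genes without TGF-β2 and 2.66% with it.

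With TGF-β2 the largest distance was that of Ddit4, at 1.18 with the miR-31 inhibitor, beside 0.30 with miR-27 inhibition. Under miR-31 inhibition Ero1l, Slc2a1 and Pfkfb3 also lay farther from the negative control with TGF-β2 than without it. The fit that picked them kept only the TGF-β2 library of that inhibitor, so this follows largely from the picking. Without TGF-β2 the largest distances were those of Ndrg1, at 0.78 (miR-31) and 0.64 (miR-27) above the negative control in cells without TGF-β2, and at 0.42 and 0.38 with it. Ankrd37 followed at 0.77 and 0.59 without TGF-β2, and at 0.06 and 0.43 with it, and Bnip3 at 0.55 and 0.61 without it, and at 0.18 and 0.05 with it. Hif1a itself showed no such distance, at -0.01 and 0.03 without TGF-β2 and 0.03 and -0.06 with it. For miR-31 and miR-27 inhibition, the HIF targets outside the members had medians of 0.20 and 0.13 with TGF-β2, and 0.18 and 0.16 without it. The 15 ATF4-CHOP stress genes had medians of 1.66 and 0.52 with TGF-β2, and 0.37 and 0.37 without it. The medians of all genes tested were 0.02 and 0.01 without TGF-β2. By the estimate of relative depth, the negative-control library without TGF-β2 was the deepest of the 6. A single library stands behind each negative-control value, so a difference of that library and an effect common to both inhibitors cannot be told apart.

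**Figure D4:**
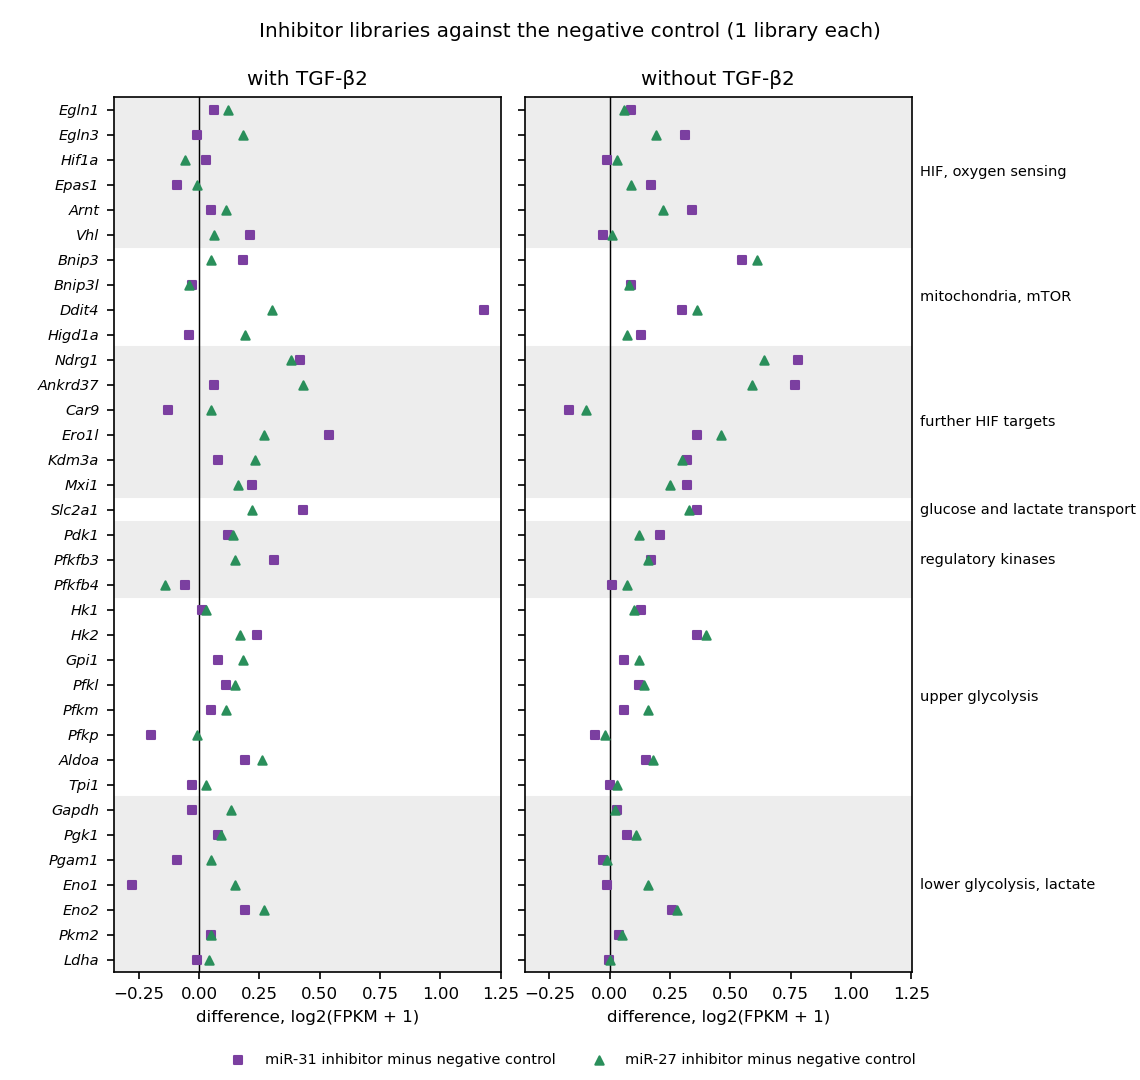
Distance of each tested member from the negative control on the log2(FPKM + 1) scale, for miR-31 inhibition (purple squares) and miR-27 inhibition (green triangles), on the left with TGF-β2 and on the right without it. On the right 28 of 35 members have both symbols above 0, with Ndrg1, Ankrd37 and Bnip3 farthest out. On the left Ddit4 with the miR-31 inhibitor stands out at 1.18.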

How the data were processed

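The authors deposited 1 table of FPKM, in which fragments are scaled to transcript length and library size. TopHat2 2.0.9, Cufflinks 2.1.1 and the mouse build mm9 are named in the submitters' processing notes, while annotation and filters are not given in the sources used here. Per the labels' protocols, total RNA was depleted of ribosomal RNA and made into directional libraries. Members were taken by exact name. Listed starts count from 0 (5685 spans matched a RefSeq length that way, 384 the other way) and were moved to count from 1. For 12 members, among them Hif1a, Hk1, Ndrg1 and Ankrd37, the listed place was shared with another name. Listed places can therefore be wider than the gene, and how fragments were divided between such names was not tested.

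The 11816 genes with a mean of 1 FPKM or more were tested on log2(FPKM + 1) with limma 3.58.1 in R 4.3.3, 2-sided, with inhibitor and TGF-β as additive terms and Benjamini-Hochberg adjustment at 0.05. The fit had 2 residual degrees of freedom and a prior of 2.87, and p-values reflect no more than how these libraries vary, which may be technical. The script was tested on simulated data. Whether a response depends on the inhibitor was not tested, since single libraries allow none. Alternatives were pseudocounts, filters, rescaling, limma options, the inhibitor term and each library left out. Members, lists and the naming rule (every member, and the 3 genes with the largest TGF-β difference in each other list, with the 3 ATF4-CHOP genes farthest from the negative control in the miR-31 library with TGF-β2) were chosen with earlier results of these data known. Single cell type markers and the copies Gm5506 and Gm9790 were named after their values were seen. The result of 1 gene that the rule names is not reported here.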

Additional observations from a re-analysis of the deposited data

Results flagged for a closer look

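For 10 tested members the TGF-β2 response had opposite signs in different transfections, with 1 library on each side, and the difference between transfections was not tested. The responses below are on the log2(FPKM + 1) scale, in the order miR-31, miR-27 and negative-control inhibitor. Ankrd37 had the widest range, at -0.65, -0.11 and 0.05. Arnt was at -0.13, 0.05 and 0.16, and Epas1 at -0.05, 0.12 and 0.21. Eno1 was at -0.04, 0.22 and 0.23, under the limit set by its copy. Pfkfb4 was at -0.05, -0.19 and 0.02. Gapdh was at -0.03, 0.14 and 0.04, and Car9 at -0.03, 0.09 and -0.06. Eno2 was at -0.02, 0.02 and 0.04, Aldoa at -0.01, 0.04 and -0.05, and Gpi1 at -0.04, 0.01 and -0.05. None of the 10 passed the test for TGF-β2 over the 3 transfections.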

How the results depend on the processing

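Each of the 19 members called for TGF-β2 kept its direction under all 14 alternatives that gave it a value, and 14 of them kept their call throughout. The other 5 were Ero1l, Slc2a1, Pdk1, Pgam1 and Ldha, whose lost calls stand with their values in the report. Of the 16 members that did not pass, 7 passed under some alternative, all as higher: Egln3, Kdm3a, Epas1 and Eno1 without the miR-31 pair, and Bnip3l, Tpi1 and Pgk1, with Egln3 and Kdm3a again, under rescaling, trend and robust options, no filter or no inhibitor term. The count of members that rose ranged from 10 to 19 when 1 library was left out and was 14 when Aldoa, Gapdh, Eno1 and Higd1a were left out, an alternative added after the data were seen, and 4 fell in each of these. Across the other settings between 14 and 19 rose, and 4 fell, or 5 without the filter on low values. Leaving out either library of a transfection removes that pair, so both give the same TGF-β2 value. Without the filter on low values, 12.1% of all genes rose and 13.9% fell. With 1 library left out, between 13.9% and 23.8% rose and between 16.3% and 27.7% fell. Rescaling to the upper quartile turned the balance of all calls, to 26.9% higher and 23.0% lower, and moved the median of all genes to 0.020.

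Differences of members that did not pass changed sign for Aldoa (0.04 with upper-quartile rescaling, 0.0016 with centring on the median, and between -0.03 and 0.01 with 1 library left out), Gpi1 (0.02 with rescaling), and, with 1 library left out, Arnt (between -0.04 and 0.10), Eno2 (between -0.0016 and 0.03) and Car9 (between -0.04 and 0.03). The negative values came without either negative-control library for Arnt and Eno2 and without either miR-27 library for Car9, and the positive value of Aldoa without either negative-control library. Members that passed as higher with the miR-31 inhibitor numbered between 0 and 5 when 1 library was left out. Genes called for the miR-31 inhibitor numbered 0 without the filter, 13 with trend and robust options, and between 3 and 1137 with 1 library left out. For the miR-27 inhibitor they numbered 0 without the filter and between 1 and 12 with 1 library left out. The causes were not tested. The labels carry no replicate numbers to use as a block. The inhibitor term already pairs the libraries of a transfection. Absolute depth is unknown, so no counting error can be given.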
